A study of Homo sapiens with 6 samples.

Results

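The established lung adenocarcinoma line A549 (human) received a control siRNA (si-ctrl) or an siRNA against the long non-coding RNA PLANE (si-PLANE.1) for 48 h, and RNA-seq libraries numbered replicate 1 and replicate 2 were made from each. The comparison here is between these numbers, not between the siRNAs: the libraries of replicate 1 (si-ctrl replicate 1 and si-PLANE.1 replicate 1) were set against those of replicate 2, with the siRNA as a block. These are 4 of the 6 libraries of the series. The other 2 libraries carry a further siRNA (si-PLANE.2) and the numbers 3 and 4, and they served only as values to set beside the rest. All cells are 1 line in the same serum-containing medium, and nothing in the labels says that a replicate number marks a shared culture, day or batch. The spread behind each p-value and SE comes from these libraries, may be technical and is shared over genes. Neither value measures how much a single gene varies between replicates. PLANE itself was not analysed here.

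Cells that sense viral or misplaced nucleic acid through receptors such as RIG-I and MDA5 make interferons, which act back on the same or neighbouring cells. Interferon receptors signal through the JAK kinases to a complex of transcription factors that includes STAT2 and IRF9 and binds the interferon-stimulated response element (ISRE) in the promoters of many genes. The products block viral entry, translation and replication, and raise antigen presentation. Lung epithelial cells such as A549 are responsive to type I and type III interferon.

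For each gene, expected counts (estimated reads, not normalized by the authors) were summed over its transcripts and tested with edgeR's quasi-likelihood test. A gene was called when its adjusted p was under 0.05 and it differed in the same direction in both treatments. All log2 differences are replicate 1 minus replicate 2, so a positive value means higher in replicate 1. FPKM values (reads scaled for transcript length and sequencing depth) are those of the authors, summed over transcripts. The 4 libraries held 10572151 to 14267231 expected counts. Of 14535 genes with a mean of at least 0.5 FPKM, 802 (5.52%) were called, with 418 (2.88%) higher in replicate 1 and 384 (2.64%) higher in replicate 2. The shares 2.88% and 2.64% are those to set beside every list count below. The larger differences lay in 1 direction: 75 genes were more than 2 log2 units higher in replicate 1 and 6 genes more than 2 log2 units higher in replicate 2. The count depended on the tool. DESeq2 called 233 genes, 137 higher in replicate 1 and 96 higher in replicate 2, and all 233 were among the 802.

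Some features of the libraries stood apart and bear on what follows. The globin genes HBB, HBA1 and HBA2 do not belong to a lung epithelial line, yet HBB was at 542 and 515 FPKM in si-ctrl replicates 1 and 2 and at 736 FPKM in si-PLANE.1 replicate 1, and was listed at 0 in si-PLANE.1 replicate 2 and in both si-PLANE.2 libraries. HBA1 (89.2, 94.8 and 137 FPKM) and HBA2 (55.6, 58.5 and 55.5 FPKM) followed the same pattern. HBB is among the 802 called genes, but its difference rests on 1 library, and 7 of the called genes differed by less than 0.1 log2 units in 1 of the treatments. The other erythroid genes looked for, chosen after the globins were seen, summed to at most 0.75 FPKM in any library over 8 genes. Leukocyte markers summed to 28.5 to 51.0 FPKM in the 4 libraries, with 9 to 11 of the 20 at 0, and this was mostly CD68 (18.2 to 39.6 FPKM), the 1 of 6 tested members called (log2 0.65, edgeR adjusted p = 0.000121). The 5 endothelial markers in the tables summed to at most 0.59 FPKM, and 0 of 3 fibroblast markers tested were called by edgeR or DESeq2 (1 at an unadjusted p under 0.05). The defining A549 genes, such as the aldo-keto reductases and keratins, were present in every library (15 of 15), with a median of 629 to 727 FPKM in the 4 libraries and of 1189 and 1286 FPKM in si-PLANE.2. Genes of the mitochondrial genome took 5.36% and 5.44% of the counts in replicate 1 of si-ctrl and si-PLANE.1, and 7.09% and 6.24% in replicate 2. The si-PLANE.2 libraries held almost no replication histone mRNA (median 1.04 and 1.11 FPKM over 29 genes, against 75.1 to 174 FPKM in the other libraries). What sets them apart was not tested, and their levels are only set side by side.

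Interferon-stimulated genes held 41 of the 75 genes that were more than 2 log2 units higher in replicate 1. Of 106 tested members of the interferon list, 76 were higher in replicate 1, where 2.88% of all genes tested were, and 0 were lower in edgeR or DESeq2 (80 higher and 2 lower at an unadjusted p under 0.05). The median log2 difference of the list was 1.50, against 0.00 over all genes. On the log2 CPM scale (reads per library after TMM scaling) all 76 had both replicate 1 libraries above both replicate 2 libraries. The groups did not overlap for 739 of all 802 called genes either, so a call largely brings this with it. DESeq2 called 67 of the 76. The list was written with earlier results of these data known, so its direction is not independent evidence.

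MX1, a dynamin-like GTPase that blocks incoming viral nucleocapsids (chr21:42791947-42841998, GRCh37), was at 21.9 FPKM in si-ctrl replicate 1 and 41.0 FPKM in si-PLANE.1 replicate 1, against 0.29 and 0.28 FPKM in replicate 2 of si-ctrl and si-PLANE.1. The groups did not overlap, and the log2 difference was 6.70 ± 0.24 (SE; edgeR adjusted p = 3.33e-170). The libraries of si-PLANE.2 were at 0.90 and 1.28 FPKM, above replicate 2 and far below replicate 1.

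The promoters of these genes are shown because the motif through which STAT2 and IRF9 act can be read in them. RefSeq promoters (GRCh38.p14, 250 bases before to 50 after the gene start) were searched for GAAANNGAAA on the gene's strand or TTTCNNTTTC, the same motif on the other strand. Both overlapping and separate matches were counted. Of the 76 called interferon genes 59 had a promoter in the table, and 36 of these (61.0%) held the motif. It was in 6 of 22 promoters (27.3%) of list members that were tested and not called, in 2.76% of the promoters of all tested genes and in 3.65% of all 27305 promoters. A match describes the letters only. In the stretches below the motif is in capitals.
ISG15, chr1:1013359-1013418, plus strand: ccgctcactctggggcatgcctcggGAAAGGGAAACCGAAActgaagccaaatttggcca
IFI6, chr1:27672314-27672373, minus strand: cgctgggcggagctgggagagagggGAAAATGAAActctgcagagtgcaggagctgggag
IFI27, chr14:94110603-94110662, plus strand: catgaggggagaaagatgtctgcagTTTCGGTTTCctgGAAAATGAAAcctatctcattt
IFIT1, chr10:89392482-89392541, plus strand: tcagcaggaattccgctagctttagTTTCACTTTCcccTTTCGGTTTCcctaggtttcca
BST2, chr19:17405726-17405785, minus strand: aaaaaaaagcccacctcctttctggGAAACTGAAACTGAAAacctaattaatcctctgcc
PARP9, chr3:122564307-122564366, minus strand: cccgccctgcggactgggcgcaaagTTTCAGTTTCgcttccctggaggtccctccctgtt
MX1, chr21:41420559-41420588, plus strand: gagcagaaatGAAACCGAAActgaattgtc

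ISG15, IFI27, IFIT1 and BST2 held 2 matches each, overlapping in ISG15 and BST2, and IFI6 held 3. The MX1 motif lies 11 bases after the annotated gene start, and the others lie before it. The stretch of PARP9 is also the promoter of DTX3L, its divergent neighbour, read on the opposite strand. PARP9 and DTX3L form a ubiquitin ligase complex, and both were higher in replicate 1 (log2 differences 3.15 and 2.29).

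Sensors of foreign nucleic acid gave 4 calls of 7 tested, all higher in replicate 1, and DESeq2 called 3 of them and not DHX58. RIGI (RIG-I), which binds RNA with a 5′ triphosphate, was at 29.0 and 43.8 FPKM in the replicate 1 libraries of si-ctrl and si-PLANE.1 and at 4.39 and 5.35 FPKM in replicate 2 (log2 difference 2.89 ± 0.14). IFIH1 (MDA5), the sensor of long double-stranded RNA, was at 12.9 and 20.6 FPKM against 1.72 and 1.95 FPKM (2.82 ± 0.17). DHX58 (LGP2), a helicase that tunes both, had a log2 difference of 2.30 ± 0.65, and TLR3, the endosomal receptor for double-stranded RNA, of 1.90 ± 0.27. STING1 and CGAS of the DNA-sensing route were not called (adjusted p = 0.728 and 0.392, edgeR). MAVS, the adaptor through which RIG-I and MDA5 signal, was not called either, with a value of the opposite sign (-0.33 ± 0.11, unadjusted p = 0.00389, adjusted p = 0.0625, edgeR).

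Among transcription factors of the pathway 5 of 8 were called. STAT2 (log2 difference 1.22 ± 0.12) and IRF9 (1.33 ± 0.13), which act together at the ISRE, differed by similar amounts. IRF7, the factor that amplifies interferon gene transcription, went from 2.38 and 1.91 FPKM in replicate 2 to 23.6 and 34.3 FPKM in replicate 1 (3.55 ± 0.19). BATF2 had a log2 difference of 2.40 ± 0.23.

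The signal upstream of these factors gave no call. All 9 receptor chains and kinases were tested and 0 were called by edgeR or DESeq2, nor at an unadjusted p under 0.05, with a median log2 difference of 0.06. IFNAR1, a chain of the type I receptor, was at 24.9 and 25.2 FPKM in replicate 1, with a log2 difference of 0.15 ± 0.13 (adjusted p = 0.593), and JAK1 and TYK2 had adjusted p-values of 0.768 and 0.857 in edgeR. Of the 9 interferon genes looked for, only IFNE reached the minimum level, at 1.98 and 2.37 FPKM in replicate 1 and 2.53 and 3.41 FPKM in replicate 2, with no call (adjusted p = 0.523). IFNB1 was at 0.46 FPKM in si-PLANE.1 replicate 1 and listed at 0 in the other 3 libraries. IFNL2 was at 0.15 and 0.56 FPKM in replicate 1 and 0 in both replicate 2 libraries. Both genes lie under the minimum for testing. All 9 summed to 2.13 and 3.76 FPKM in replicate 1 of si-ctrl and si-PLANE.1, and to 2.65 and 3.41 FPKM in replicate 2. Listed at 0 were 7 and 4 of the 9 in replicate 1, and 7 and 8 in replicate 2. A member besides IFNE was thus above 0 in si-ctrl replicate 2 too. The chemokines CXCL9, CXCL10 and CXCL11 were at most 0.16 FPKM in the 4 libraries. SOCS1 and SOCS3, which dampen JAK signalling, were tested and not called (adjusted p = 0.433 and 0.0689).

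Antiviral effectors held most of the calls, 61 of 73 tested. The most abundant by reads per length was IFITM2, a membrane protein that hinders viral fusion, at 410 and 770 FPKM in replicate 1 and 120 and 118 FPKM in replicate 2 of si-ctrl and si-PLANE.1 (log2 difference 1.60 ± 0.12). IFI6, a membrane protein of the endoplasmic reticulum (chr1:27992575-27998723, GRCh37), was at 426 and 708 FPKM against 8.83 and 10.8 FPKM (5.75 ± 0.15). IFI27 was at 161 and 258 FPKM against 0.88 and 0.96 FPKM (6.26 ± 0.22). For each of these both replicate 1 libraries lay above both replicate 2 libraries, and within replicate 1 the si-PLANE.1 library was the higher. LGALS3BP, a secreted galectin-binding glycoprotein, was at 379 and 688 FPKM against 78.6 and 71.6 FPKM (2.77 ± 0.13). 

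The enzymes that act on viral RNA or translation ranged widely. EIF2AK2 (PKR), the kinase that halts translation on double-stranded RNA, was at 169 and 203 FPKM in replicate 1 and 54.3 and 65.2 FPKM in replicate 2 (1.50 ± 0.12). ADAR, which edits adenosine in double-stranded RNA, was at 155 and 171 FPKM against 69.3 and 66.5 FPKM (1.14 ± 0.12). OAS1, a synthetase whose product activates RNase L, was at 162 and 203 FPKM against 37.0 and 46.5 FPKM (2.11 ± 0.12). Its neighbours differed in size: OAS3 by 2.54 ± 0.13 and OAS2 by 7.21 ± 0.23, the latter at 35.7 and 61.8 FPKM against 0.27 and 0.16 FPKM. PLSCR1, a phospholipid scramblase, had a log2 difference of 2.11 ± 0.12. The smallest of the 12 most abundant called members were TRIM22, a ubiquitin ligase (0.77 ± 0.14, 124 and 174 against 114 and 132 FPKM), LY6E, a surface protein that limits coronavirus entry (0.73 ± 0.11) and RNF213, a giant ubiquitin ligase (0.65 ± 0.13). The call for LY6E is not shared by DESeq2 (adjusted p = 0.393).

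All 6 genes of the ISG15 system were higher in replicate 1. ISG15, a ubiquitin-like modifier, was at 125 and 228 FPKM in replicate 1 and at 1.22 and 2.27 FPKM in replicate 2 of si-ctrl and si-PLANE.1 (6.59 ± 0.23). Its activating enzyme UBA7 (3.09 ± 0.33), conjugating enzyme UBE2L6 (1.44 ± 0.14) and ligase HERC5 (2.66 ± 0.18) moved with it, as did HERC6 (2.23 ± 0.18) and the protease USP18 (1.76 ± 0.17), which removes ISG15 and blunts receptor signalling.

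A few genes were close to absent in replicate 2. RSAD2 (viperin) held 29 and 71 counts in replicate 1 of si-ctrl and si-PLANE.1 and 0 counts in both replicate 2 libraries. Against a floor of 3 counts per library it was at least 9.81-fold higher in si-ctrl and at least 21.6-fold higher in si-PLANE.1. BST2 (tetherin) held 198 and 429 counts against 2 and 3 counts, a ratio of 121 with a 95% counting interval of 51.7 to 375. IFI44L held 222 and 408 counts against 1 count in each, a ratio of 305 (interval 84.0 to 2520). The intervals cover counting error only. With RSAD2 set to its bound the list median stayed at 1.50.

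**Figure D1:**
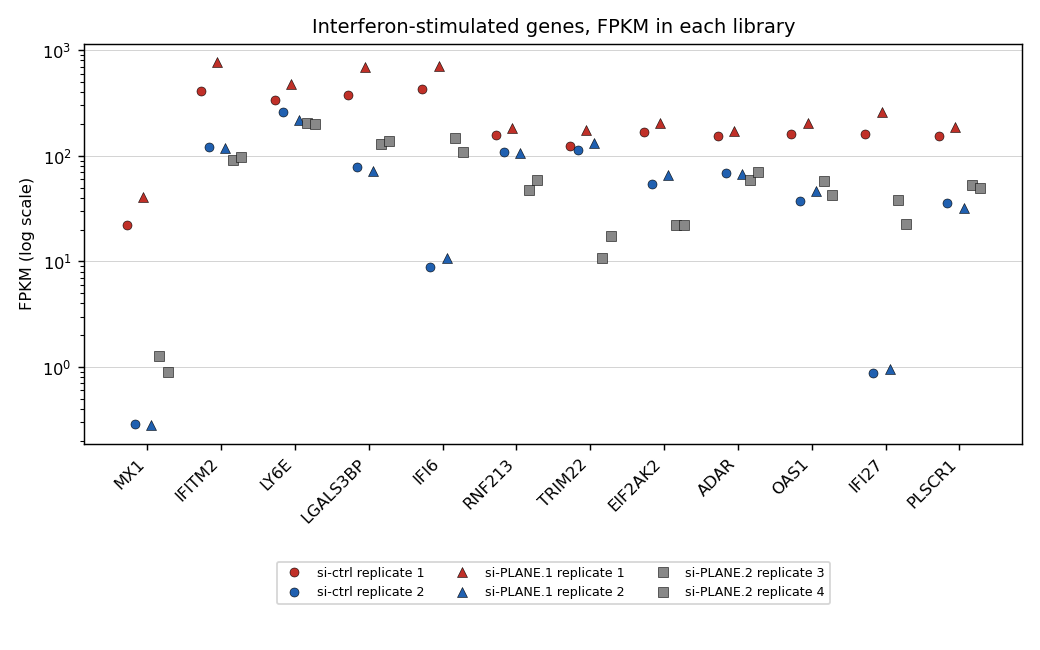
FPKM (log scale) of MX1 and 11 of the 12 most abundant called interferon genes in each of the 6 libraries; red points are replicate 1, blue points replicate 2 and grey squares the si-PLANE.2 libraries. Within each treatment the red point lies above the blue one for every gene shown, from 21.9 and 41.0 against 0.29 and 0.28 FPKM for MX1 to 124 and 174 against 114 and 132 FPKM for TRIM22, and for IFI6 and IFI27 the grey squares lie in between.

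The called interferon genes lay on 18 chromosomes, and 28 of the 76 fell in 12 groups of neighbours less than 100000 bases apart (GRCh37). IFIT2, IFIT3, IFIT1 and IFIT5 lie at chr10:91043451-91181362 and differed by 1.91 to 4.79 log2 units. IFITM2, IFITM1 and IFITM3 lie at chr11:303655-329475 and differed by 1.60 to 5.03 log2 units. OAS1, OAS3 and OAS2 lie at chr12:113343661-113449528, and MX2 and MX1 at chr21:42733926-42841998. Within each of these groups the members share sequence, so reads may have been divided between them.

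In the si-PLANE.2 libraries the summed level of these genes was near that of replicate 2, while single genes were not. The FPKM values of the 76 called genes summed to 4647 and 6918 in replicate 1 of si-ctrl and si-PLANE.1, and to 1479 and 1484 in replicate 2. For si-PLANE.2, numbered 3 and 4, the sums were 1513 and 1491. For 72 of the 76 genes both si-PLANE.2 libraries lay below both replicate 1 libraries. The 76 were selected as high in replicate 1, so that count follows largely from the selection. The sums are carried by a few abundant genes. IFI6 was at 146 and 109 FPKM in si-PLANE.2 against 8.83 and 10.8 FPKM in replicate 2, and IFI27 at 38.3 and 22.5 against 0.88 and 0.96 FPKM. The 6 genes of the ISG15 system summed to 88.2 and 84.9 FPKM against 32.5 and 33.5 FPKM. OAS2 (0.15 and 0.14 FPKM) was not above replicate 2. No test was made against si-PLANE.2, where the siRNA and the replicate numbers change together.

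MHC class I molecules show peptides of cellular and viral proteins to T cells. Of 19 tested genes of this pathway 10 were higher in replicate 1 and 0 lower (15 and 0 at an unadjusted p under 0.05), with a median log2 difference of 0.98. DESeq2 called 6, limma 1 or 3 by pseudocount, and 4 were called with 1 transcript per gene (the most abundant), where the median was 0.50. B2M, the light chain (chr15:45003556-45011049, GRCh37), was at 2818 and 4150 FPKM in replicate 1 and 917 and 835 FPKM in replicate 2 of si-ctrl and si-PLANE.1 (1.92 ± 0.13). The proteasome activator subunits PSME1 (0.83 ± 0.11) and PSME2 (1.11 ± 0.12), which lie close together on chromosome 14, the immunoproteasome subunit PSMB9 (2.31 ± 0.53), the peptide-trimming aminopeptidase ERAP1 (0.88 ± 0.13), the transporter TAP1 (1.04 ± 0.20) and the transactivator NLRC5 (1.57 ± 0.18) were called as well. DESeq2 called neither PSMB9 (adjusted p = 0.304) nor TAP1.

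Outside the interferon list 342 genes were higher in replicate 1, and DESeq2 called 70 of them. By the size of the difference, among genes with a symbol, a mean of at least 2 FPKM and groups that did not overlap, the first 10 included SAMHD1, an enzyme that degrades the nucleotides a retrovirus needs (25.5 and 30.0 against 5.78 and 6.91 FPKM, 2.10 ± 0.13), REC8, a meiotic cohesin subunit (11.2 and 12.1 against 3.02 and 3.00 FPKM, 2.20 ± 0.27), PLAAT4, a phospholipase (10.7 and 13.7 against 2.10 and 0.64 FPKM, 3.15 ± 0.41), and PSMB9. SAMHD1, PLAAT4 and REC8 are known from other cells to be inducible by interferon. DESeq2 did not call PSMB9 (adjusted p = 0.304). FGFBP1, a carrier of fibroblast growth factors (2.07 ± 0.31), and TCN1, a vitamin B12 binding protein (2.15 ± 0.38, DESeq2 adjusted p = 0.0560), were also among the first 10. A further 3 were the pseudogenes PMS2P10 (10.4 and 16.6 FPKM against 0 in both), GCSHP5 (12.6 and 8.48 FPKM against 0 in both) and HMGB1P3 (3.95 and 5.13 against 0.21 FPKM in both). Their reads can be shared with their parent genes, and DESeq2 did not call them (adjusted p = 0.193 to 0.804).

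The ISRE motif was in 17 of the 242 promoters (7.02%) of these other genes higher in replicate 1, against 2.76% of all tested genes and 2.25% of the 267 promoters of genes higher in replicate 2. Beside the MHC class I genes B2M, PSME1, PSME2 and ERAP1 they include MYD88, the adaptor of Toll-like receptors (0.73), CFB, a factor of the alternative complement pathway (1.69), BTN3A3, a butyrophilin (1.35), TRIM34 (1.47) and the galectin LGALS9 (0.82). These genes were chosen after their values were seen.

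**Figure D2:**
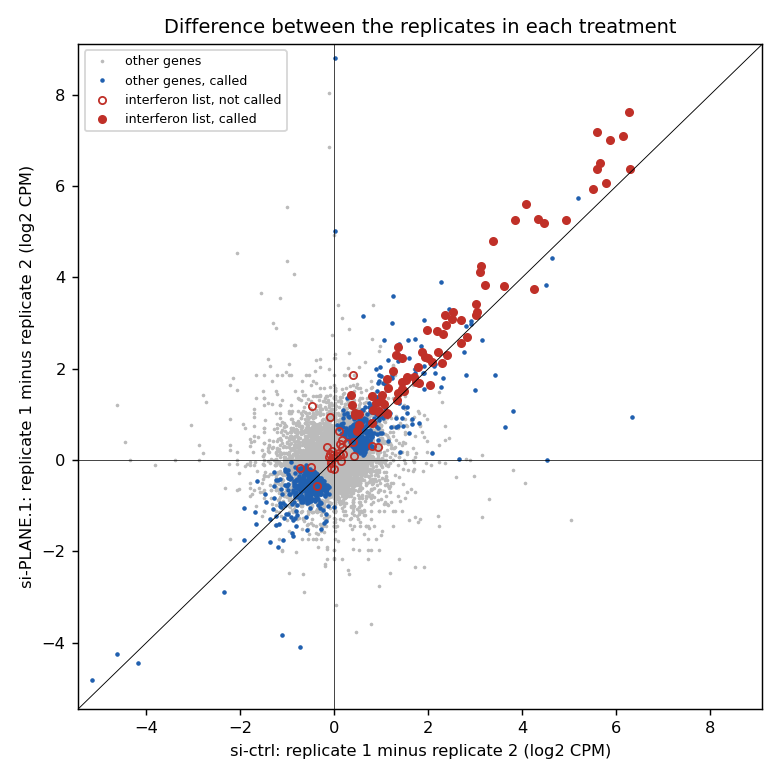
Each point is 1 of 14535 genes, with the log2 CPM difference of replicate 1 minus replicate 2 within si-ctrl on the horizontal axis and within si-PLANE.1 on the vertical axis; the diagonal marks equal differences. The called interferon genes (filled red) run up along the diagonal, mostly above it, while called genes higher in replicate 2 (blue, lower left) stay mostly within 2 log2 units.

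The 2 differences plotted there share no library. Across the 14535 genes they correlated at 0.38 (Pearson), and at 0.24 over the 14429 genes outside the interferon list; genes are not independent, so no p is given. Among the 10283 genes of at least 5 FPKM, the SD of the log2 difference between replicates was 0.38 in si-ctrl, 0.43 in si-PLANE.1 and 0.23 in si-PLANE.2. Without the interferon list these were 0.30, 0.34 and 0.23.

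Most called interferon genes had a larger value in si-PLANE.1. The median within-treatment difference of the 76 called genes was 1.99 log2 units in si-ctrl and 2.28 in si-PLANE.1, with a larger value in si-PLANE.1 for 65 genes. Seen the other way, the median of si-PLANE.1 minus si-ctrl over these 76 genes was 0.49 in replicate 1 and 0.10 in replicate 2, against 0.00 over all genes in each. The difference of the replicate effect between treatments was fitted gene by gene as an interaction. Each combination of siRNA and replicate number is 1 library, so all the spread in that fit comes from the si-PLANE.2 pair, whose SD is the smallest of those above, and its p-values do not show that a gene differed between the treatments. An adjusted p under 0.05 was reached by 163 of 14535 genes (1.12%) and by 5 of 106 interferon genes. Those 5 were LGALS3BP (2.36 in si-ctrl and 3.19 in si-PLANE.1), PML, the scaffold of nuclear bodies, LY6E, IFITM2 and PARP12, all with the larger value in si-PLANE.1. B2M, outside that list, had values of 1.59 and 2.24. Most interferon genes did not reach it, MX1 included (5.86 and 7.02, adjusted p = 0.559, edgeR). When each gene was represented by its most abundant transcript, the interaction in edgeR was past the threshold for 0 genes (710 at an unadjusted p under 0.05, against 1593 for summed counts).

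Beyond interferon, replicate 1 was higher for part of cholesterol synthesis. Cells make cholesterol when the sterol sensor lets SREBP factors enter the nucleus. Of 27 tested genes 6 were higher in replicate 1 and 0 lower in edgeR (15 and 0 at an unadjusted p under 0.05), with a median log2 difference of 0.24. DESeq2 called 3. SREBF1, which encodes an SREBP factor, was at 120 and 170 FPKM in replicate 1 and 95.3 and 98.6 FPKM in replicate 2 of si-ctrl and si-PLANE.1 (0.68 ± 0.11). The synthesis enzymes HMGCS1 (0.53 ± 0.11), IDI1 (0.49 ± 0.14) and LSS (0.43 ± 0.14), and the feedback protein INSIG1 (0.52 ± 0.14) were also called. With 1 transcript per gene the sign of SREBF1 turned.

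Genes of the unfolded protein response, which answers misfolded protein in the endoplasmic reticulum, were higher in replicate 1 in 6 of 16 cases and lower in 0 in edgeR (11 and 0 at an unadjusted p under 0.05), with a median log2 difference of 0.33. DESeq2 called 2. HSPA5 (BiP), the main chaperone of that compartment, was at 153 and 168 FPKM in replicate 1 and 101 and 123 FPKM in replicate 2 (0.47 ± 0.12), and XBP1, a transcription factor of the response, at 116 and 113 against 80.5 and 82.0 FPKM (0.47 ± 0.11). DNAJB11, DNAJC3, HERPUD1 and HYOU1 had differences of 0.36 to 0.51. The cytosolic heat shock genes gave calls in both directions: of 11 tested, DNAJA1 was higher in replicate 1 (0.46 ± 0.11), while HSPA8 (785 and 619 against 1101 and 1061 FPKM, -0.53 ± 0.12) and HSP90AB1 (-0.40 ± 0.13) were higher in replicate 2. DESeq2 called HSPA8 and HSP90AB1 and not DNAJA1. Of 22 targets of ATF4, the factor of amino acid shortage, 2 (9.09%) were higher in replicate 1 and 1 (4.55%) in replicate 2. The latter was DDIT4, which is also counted among the HIF targets below. Among those higher in replicate 1, SLC7A5, a transporter of large amino acids, had a value of 0.76 in si-PLANE.1 and 0.06 in si-ctrl. Of these ATF4 targets DESeq2 called DDIT4 and neither of the 2 higher in replicate 1. Metallothioneins, which bind zinc and copper, were higher in replicate 1 for MT2A (0.83 ± 0.13) and MT1X (0.53 ± 0.15), 2 of 4 tested, and DESeq2 called 1.

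NF-kB targets gave 4 calls of 27 (14.8%, beside 2.88% over all genes), all higher in replicate 1, and DESeq2 called 2. The neutrophil chemokine CXCL5 was at 265 and 181 FPKM in replicate 1 and 128 and 115 FPKM in replicate 2 of si-ctrl and si-PLANE.1 (0.80 ± 0.12), CXCL1 at 97.1 and 77.8 against 56.4 and 49.6 FPKM (0.70 ± 0.13), CXCL2 differed by 0.53 ± 0.17 and PTGS2 (cyclooxygenase) by 0.39 ± 0.12. CXCL8 (adjusted p = 0.275), the 7 feedback inhibitors and the 5 NF-kB subunits gave no call in edgeR or DESeq2. Among lung and epithelial genes LAMP3, a lysosomal protein of type II cells and dendritic cells (1.85 and 2.71 against 0.39 and 0.32 FPKM, 3.02 ± 0.40), and KRT19 (2.04 ± 0.38) were higher in replicate 1. DESeq2 called LAMP3 (adjusted p = 0.00103) and not KRT19 (adjusted p = 0.108). The other 14 of 15 A549 genes tested, KRT19 aside, gave no call.

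Genes higher in replicate 2 mostly differed by smaller amounts, and targets of the hypoxia factor HIF were among them. A difference of more than 5 log2 units was seen for 4 genes higher in replicate 2 and 20 higher in replicate 1. Those 4 did not pass the limits set for named genes. HIF is broken down when oxygen is present, and its targets serve vessel growth, glucose uptake and glycolysis. Of 22 HIF targets 11 were higher in replicate 2, where 2.64% of all genes tested were, and 0 were higher in replicate 1 in edgeR (15 and 2 at an unadjusted p under 0.05). DESeq2 called 8, and the median log2 difference was -0.44. With the 16 glycolytic enzymes the hypoxia list gave 12 calls, which fell to 2 with limma (either pseudocount), 2 with no treatment term and 3 with the most abundant transcript. ADM (adrenomedullin, chr11:10326620-10328944, GRCh37), a vasodilator peptide, was at 60.5 and 54.1 FPKM in replicate 2 of si-ctrl and si-PLANE.1 and at 23.7 and 17.4 FPKM in replicate 1 (-1.57 ± 0.14, adjusted p = 3.46e-26, edgeR). SLC2A3, the glucose transporter GLUT3, was at 141 and 112 FPKM against 64.9 and 46.6 FPKM (-1.10 ± 0.12). DDIT4 (REDD1), an inhibitor of mTOR signalling that is also the ATF4 target counted above, was at 193 and 201 FPKM against 115 and 139 FPKM (-0.72 ± 0.11). In all 3 the replicate 2 libraries lay above the replicate 1 libraries.

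PFKFB4 (-0.83 ± 0.16), ANGPTL4 (-0.76 ± 0.12), the oxygen sensor EGLN3 (-0.67 ± 0.11) and VEGFA, the vessel growth factor (-0.56 ± 0.11), were also higher in replicate 2. So were the histone demethylase KDM3A (-0.50 ± 0.11), NDRG1 (-0.49 ± 0.12), BHLHE40 (-0.46 ± 0.12) and PDK1 (-0.41 ± 0.12). HILPDA, a lipid droplet protein under HIF that is not on the list and was chosen after its values were seen, was at 152 and 139 FPKM in replicate 2 and 81.5 and 77.0 FPKM in replicate 1 (-1.02 ± 0.12). CA9, the HIF target most often used as a hypoxia marker, gave no call (41.2 and 46.3 FPKM in replicate 1, 39.7 and 40.8 FPKM in replicate 2, adjusted p = 0.760), nor did SLC2A1 or BNIP3. The glycolytic enzymes gave 1 call of 16, PGAM1, and that was higher in replicate 1 (0.36 ± 0.11). LDHA (0.09 ± 0.13) and ALDOA (0.00 ± 0.13) were not called.

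**Figure D3:**
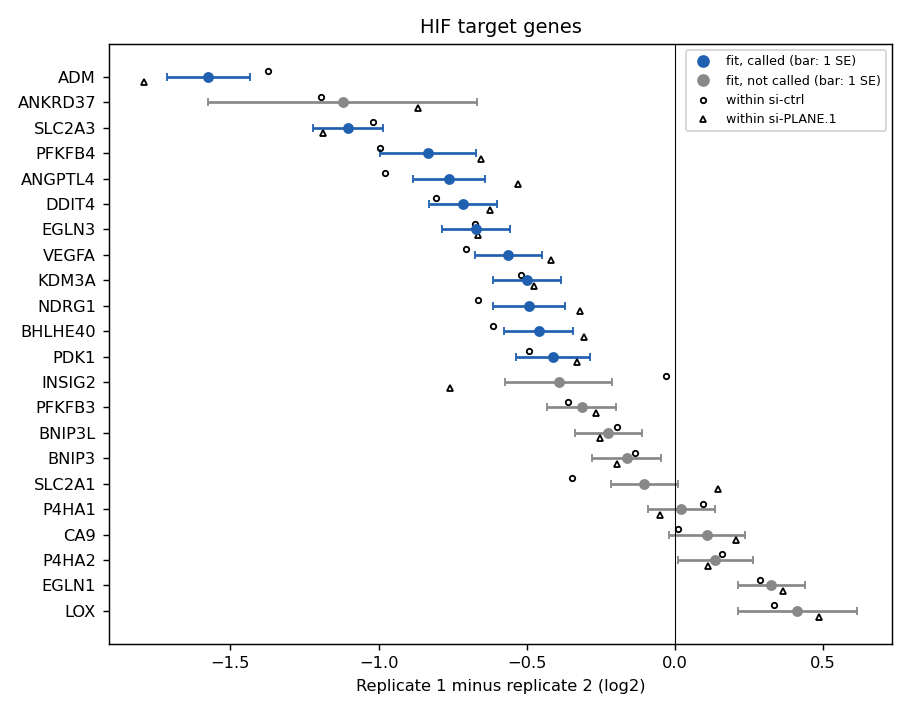
Log2 difference of replicate 1 minus replicate 2 for the 22 HIF targets, with the edgeR estimate and its SE (blue where called, grey where not) and the value within si-ctrl (open circle) and si-PLANE.1 (open triangle). The 11 blue points run from -1.57 for ADM to -0.41 for PDK1, and 5 targets have positive estimates, none of them called.

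Of 23 tested immediate early genes, which respond within minutes to serum or stress, 5 were higher in replicate 2 and 0 in replicate 1 in edgeR (8 and 2 at an unadjusted p under 0.05). DESeq2 called 2. FOS, a subunit of the AP-1 factor (chr14:75745529-75748933, GRCh37), was at 59.5 and 48.4 FPKM in replicate 2 of si-ctrl and si-PLANE.1 and at 19.3 and 20.1 FPKM in replicate 1 (-1.55 ± 0.14). DUSP1, a phosphatase that switches off MAP kinases, was at 51.6 and 40.0 FPKM against 29.3 and 21.9 FPKM (-0.89 ± 0.13). ZFP36 (-0.63 ± 0.13), DUSP6 (-0.62 ± 0.16) and JUNB (-0.44 ± 0.13) had smaller differences, and the median over the 23 genes was 0.00. CLK1, a kinase of splicing factors, was at 30.2 and 37.5 FPKM in replicate 2 against 17.2 FPKM in both replicate 1 libraries (-1.17 ± 0.13). Of 24 YAP targets AMOTL2 (-0.60 ± 0.12) and AJUBA (-0.52 ± 0.14) were higher in replicate 2, a share of 8.33% beside 2.64% over all genes. DESeq2 called AMOTL2 (adjusted p = 0.0306) and not AJUBA (adjusted p = 0.437), and for AMOTL2 the groups overlapped.

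Ribosomal protein genes were higher in replicate 2 in 24 of 73 cases and higher in replicate 1 in 0 by edgeR (53 and 0 at an unadjusted p under 0.05), with a median log2 difference of -0.31. DESeq2 called 9. RPL13A was at 7699 and 6220 FPKM in replicate 2 of si-ctrl and si-PLANE.1 and at 4946 and 4328 FPKM in replicate 1 (-0.60 ± 0.13), and RPS2 at 3124 and 2465 against 2163 and 1611 FPKM (-0.60 ± 0.13). The count differed with the treatment it rested on, with 14 genes called without either si-PLANE.1 library and 51 without either si-ctrl library. Of the 13 protein genes of the mitochondrial genome 6 were higher in replicate 2, by edgeR and by DESeq2. MT-CO1, a subunit of cytochrome c oxidase, was at 23216 and 20549 FPKM in replicate 2 and 16885 and 15610 FPKM in replicate 1 (-0.48 ± 0.14), and MT-ATP6, a subunit of ATP synthase, differed by -0.63 ± 0.13. These move with the larger mitochondrial share of the counts in replicate 2 given above, and whether that share comes from the cells or from the libraries was not tested.

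Replication histone genes, whose mRNAs lack a poly(A) tail, were higher in replicate 2 for 8 of 26 tested and higher in replicate 1 for 2; DESeq2 called 4, all higher in replicate 2. H4C3 was at 503 and 325 FPKM in replicate 2 of si-ctrl and si-PLANE.1 and at 273 and 174 FPKM in replicate 1 (-0.94 ± 0.13), and H2BC4 at 737 and 570 against 514 and 330 FPKM (-0.70 ± 0.11). Of 39 S-phase genes edgeR called PCNA (0.42 ± 0.11) and FEN1 (0.51 ± 0.15) higher in replicate 1, a share of 5.13% beside 2.88% over all genes, and DESeq2 called neither (adjusted p = 0.0623 and 0.667). For FEN1 the groups overlapped. Of the G2/M genes 0 of 44 were called by edgeR or DESeq2 (5 of the 83 cell cycle genes were higher in replicate 2 and 6 in replicate 1 at an unadjusted p under 0.05). The yield of mRNAs without a poly(A) tail depends on library preparation, and its part here was not tested.

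**Figure D4:**
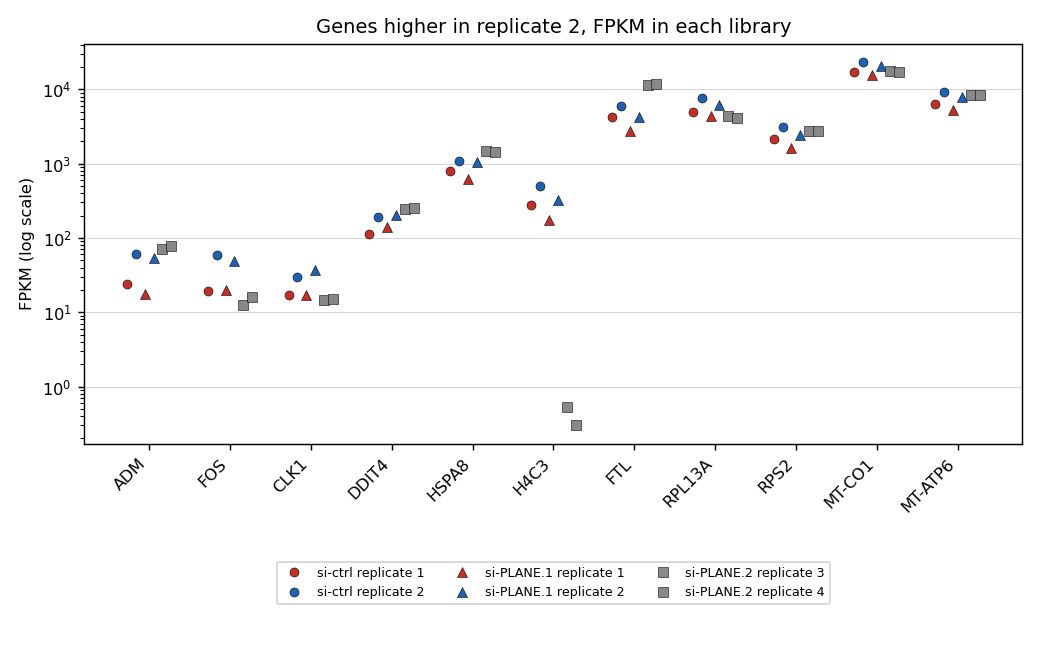
FPKM (log scale) of 11 genes higher in replicate 2, in each of the 6 libraries; red points are replicate 1, blue points replicate 2 and grey squares si-PLANE.2. Within each treatment the blue point lies above the red one, from 60.5 against 23.7 FPKM for ADM in si-ctrl to 20549 against 15610 FPKM for MT-CO1 in si-PLANE.1, and the grey squares of H4C3 fall to 0.53 and 0.30 FPKM.

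Other genes of high level were also higher in replicate 2. FTL, the ferritin light chain, was at 5878 and 4236 FPKM against 4265 and 2739 FPKM (-0.60 ± 0.13), and TKT (transketolase) differed by -0.44 ± 0.12. They were the 2 called among 31 targets of NRF2, a share of 6.45% beside 2.64% over all genes. ACTG1, cytoplasmic actin, was at 5444 and 4758 FPKM against 4386 and 3298 FPKM (-0.50 ± 0.13). For FTL the FPKM of si-ctrl replicate 1 was not below that of si-PLANE.1 replicate 2, so its difference is seen within each treatment. Of 28 p53 targets GDF15 and ZMAT3 were called (-0.65 ± 0.14 and -0.44 ± 0.13), neither by DESeq2. That is a share of 7.14% beside 2.64% over all genes. The values of GDF15 were -1.05 in si-ctrl and -0.24 in si-PLANE.1. In si-PLANE.1 its summed FPKM ran slightly the other way, at 43.4 in replicate 1 and 41.8 in replicate 2. Of 35 TGF-beta, matrix and epithelial genes TGFBI (-0.45 ± 0.12) and CLDN1 (-0.49 ± 0.11) were higher in replicate 2 (5.71%). A further 4 were higher in replicate 1 (11.4%), and KRT19, already counted among the A549 genes, was 1 of them. These also included ITGA5 (0.38 ± 0.11) and PMEPA1 (0.39 ± 0.12). DESeq2 called neither (adjusted p = 0.472 for both), and in si-ctrl their summed FPKM ran the other way, at 31.0 in replicate 1 and 38.0 in replicate 2 for ITGA5 and at 17.6 and 19.7 for PMEPA1. The remaining named genes higher in replicate 2 were NFKBIL1, CFAP68, GNRH1, PDZK1, the readthrough gene IFNAR2-IL10RB and the pseudogenes GUSBP13 and RPS12P26, at -1.14 to -2.17 log2 units, and DESeq2 called 0 of these 7 (adjusted p = 0.0834 to 0.960).

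**Figure D5:**
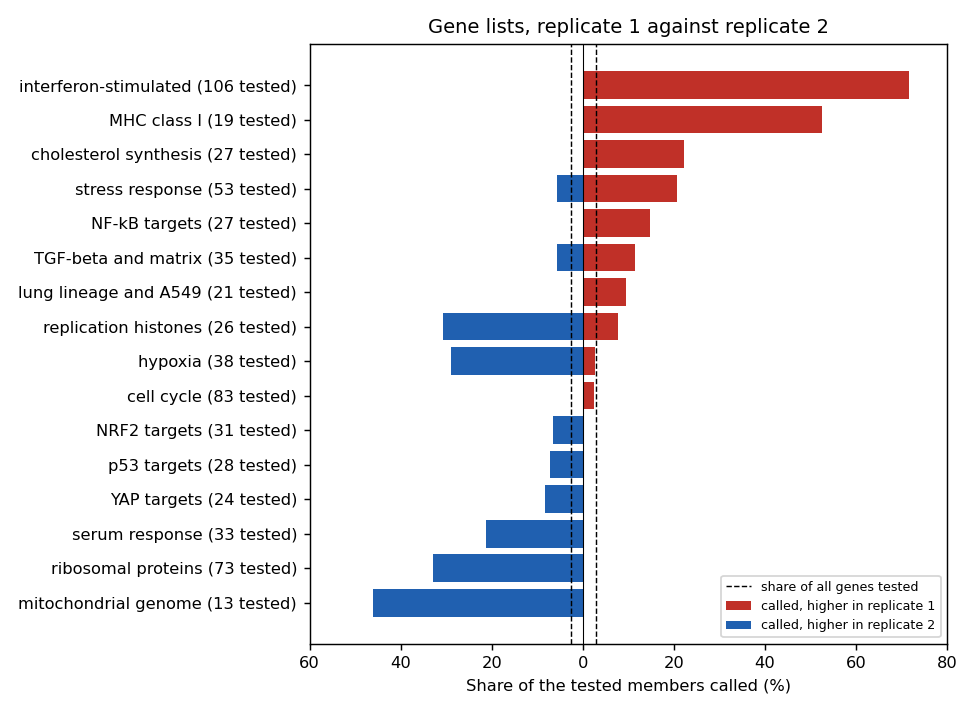
Share of the tested members of each gene list (%) called higher in replicate 1 (red, to the right) and higher in replicate 2 (blue, to the left); dashed lines mark 2.88% and 2.64%, the shares over all 14535 genes. The interferon (71.7%) and MHC class I (52.6%) lists reach farthest to the right, and the mitochondrial genome (46.2%) and ribosomal proteins (32.9%) farthest to the left; the hypoxia bar (28.9%) pools the 22 HIF targets, of which 11 were called, with 16 glycolytic enzymes.

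The called genes also differed in transcript length. The most abundant transcript had a median length of 2386.5 bases over the 418 genes higher in replicate 1 (2395 bases outside the interferon list), 2021 bases over the 384 genes higher in replicate 2 and 2003 bases over all genes tested. Whether RNA length moved with the replicate through the libraries was not tested. For the promoters of HIF targets, the motif ACGTG or GCGTG on either strand was in 6 of 8 called and 9 of 10 not called members with a promoter in the table, against 62.1% of the promoters of all genes tested.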

How the data were processed

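Per the labels and the study's methods, A549 RNA was sequenced 48 h after transfection. The submitters' processing notes name Trimmomatic 0.30, HISAT2 2.0.1, HTSeq 0.6.1, DESeq and hg19; the tool behind the expected counts is not given in the sources used here. The authors deposited expected counts per transcript, not normalized, and FPKM values, normalized for length and depth. Transcripts without a gene identifier (3.03% to 3.18% of counts in the 4 libraries) were left out.

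Expected counts were summed per gene, rounded and tested with edgeR 4.0.16 (TMM, treatment and replicate as terms) in R 4.3.3. 4 libraries and 3 terms leave 1 residual degree of freedom, and the estimated prior degrees of freedom were infinite, so all genes shared the trended spread. Each SE was worked back from the log2 difference and the test statistic, so it carries that shared spread and not the gene's own. The interaction used all 6 libraries in 5 groups. DESeq2 1.42.0, limma 3.58.1 on log2(FPKM + 1) or log2(FPKM + 0.1), other scalings, filters, thinning and left-out libraries were alternatives. In simulations of 14535 genes for this comparison, 50% of 1.5-fold, 89% of 2-fold and 100% of 4-fold changes were recovered, with 0 to 9 false calls. The simulated counts were drawn with the fit's own spread and no treatment effect, and were refitted with the same model. Few false calls follow from that setting, and it does not measure false calls in the real libraries. Depth limits genes under 3 counts per library.

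Named genes are MX1, the 12 most abundant called interferon genes, the 10 largest differences each way outside that list (mean of at least 2 FPKM, groups not overlapping) and up to 4 called genes per list; other genes serve as examples. Members, lists and rule were chosen with earlier results of these data known. 82 genes were named by the rule, and some of them are not reported here. Exact permutation of 4 libraries cannot reach 0.05 and was not used.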

Additional observations from a re-analysis of the deposited data

Results flagged for a closer look

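The difference between the replicates gave an adjusted p under 0.05 between si-ctrl and si-PLANE.1 for 163 genes in edgeR's interaction fit, among them 5 of the interferon list. Each of the 4 combinations compared is 1 library and all the spread comes from the si-PLANE.2 pair, so these p-values do not show a difference between the treatments. The globins led: HBB (adjusted p = 2.27e-96), HBA1 (9.95e-60) and HBA2 (1.11e-30) were present at 55.5 to 736 FPKM in 3 libraries and listed at 0 in si-PLANE.1 replicate 2, so each difference rests on that library. LGALS3BP (adjusted p = 0.000151), IFITM2 (0.0265) and LY6E (0.0221) were named above, as were B2M (0.00434), SLC7A5 (0.000632) and GDF15 (0.0132). The readthrough gene IFNAR2-IL10RB also passed (0.0493), and its reads can be shared with the genes it spans.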

How the results depend on the processing

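The interferon result held in direction under every alternative run, with a median log2 difference of 1.32 to 1.71, and MX1 was called in all 15 (log2 difference 4.59 to 7.93). The total of 802 genes fell to 233 with DESeq2, 42 with limma on log2(FPKM + 1), 62 on log2(FPKM + 0.1), 113 with no treatment term, 101 when a gene was represented by its most abundant transcript and 189 with an absolute log2 difference over 1, and rose to 2396 at an unadjusted p under 0.05; left-out libraries gave 1124 to 1157. Interferon genes called fell from 76 to 33 and 45 with limma (pseudocounts 1 and 0.1) and were 72 to 76 with a library left out. A fit without a library rests on the other treatment alone and takes its spread from si-PLANE.2. The share of calls higher in replicate 1 was 52.1%, but 58.8% with DESeq2, 90.5% and 88.7% with limma, 88.5% with no treatment term and 74.3% with 1 transcript per gene. The interaction gave 144 to 160 genes with other scalings, 139 with a minimum of 2 FPKM and 0 with 1 transcript per gene, alternatives chosen after seeing the data. Of the 82 named genes DESeq2 kept 50 calls and limma 14 or 19, all in the same direction; with limma MHC class I calls fell from 10 to 1 and 3 and hypoxia calls from 12 to 2, and the ribosomal, mitochondrial, cholesterol and unfolded protein calls were lost. SREBF1 turned to -0.54 with 1 transcript per gene. No paired analysis was possible with the replicate number as a block because that number is what was compared.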
